A study of Bos indicus and Bos taurus with 17 samples.

Results

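The genes described here carry out or control the de novo synthesis of milk fatty acids, the making of fatty acid chains inside the epithelial cell of the mammary gland. They were FASN, ACACA, ACACB, ACSS1, ACSS2, ACLY, SCD, SREBF1, IDH1 and FADS2, taken as named symbols of this route, with no threshold on their values. Of these 10 genes, 9 were found among the 21631 distinct gene names of the table, which holds 61264 entries, 25121 of them with a name. SCD, the stearoyl-CoA desaturase, was not found under its symbol and is not analysed here. ACLY was found only in an entry that joins it with ENSBTAG00000011460, so its value cannot be separated from that of the joined gene. ACACA stood in 2 entries, of which the more abundant was used, since the other was at most 0.117 FPKM in any group. FPKM counts the fragments of a gene per kilobase of its transcript, scaled to the mapped reads, and is thus a level per length, so that levels of different genes can be set side by side.

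The study sequenced the RNA of epithelial cells taken from the milk of Kashmiri cattle (labelled Bos indicus) and Jersey cattle (labelled Bos taurus) at 3 stages of lactation, on days 15, 90 and 250 in milk (D15, D90 and D250). The labels name 17 samples, 3 for each breed and day except 2 for Jersey cattle at D90, from cows in lactation number 2 or 3. D15 samples came from March, D90 samples from July and D250 samples from December in both breeds, so the stage of lactation and the month cannot be told apart. Since the labels of breed and species coincide, a difference between the breeds cannot be told apart from one between Bos indicus and Bos taurus. Reads of both were aligned to the same bovine build, and any effect of this on the values was not tested. The cells were captured from defatted milk with beads carrying an antibody against cytokeratin 18 (KRT18), so that epithelial cells shed into milk stand for the gland. Lactation number as labelled also differed between groups. All 3 Kashmiri samples at D90 and all 3 Jersey samples at D250 were labelled lactation 2, and each of the other groups held both numbers. The paper instead describes 3 cows of each breed, all in lactation 3, sampled on each of the 3 days. Labels and paper thus differ on lactation number, and which holds cannot be told here. The values used here are 1 pooled FPKM per gene and group, made by the authors. The spread between cows and the read depth behind a value are therefore unknown, no test between groups was possible, and every difference below is a description of 6 pooled values. Where 3 values are given for a breed, they stand in the order of D15, D90 and D250.

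In ruminants the mammary epithelial cell builds the short and medium chain fatty acids of milk mainly from acetate and beta-hydroxybutyrate carried by the blood, rather than from glucose. Acetate is joined to coenzyme A by the acetyl-CoA synthetases, acetyl-CoA carboxylase turns acetyl-CoA into malonyl-CoA, and fatty acid synthase lengthens the chain with NADPH as the reductant. SREBF1 encodes the transcription factor SREBP1, a known activator of many genes of this route, and desaturases then introduce double bonds into finished chains.

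The cell type named in the labels was checked with 14 epithelial marker genes, of which 13 were found and BTN1A1 was not. All 13 were above 0 in every group, and their summed FPKM was 6701, 813.5 and 2860 in Kashmiri and 2823, 108.1 and 1544 in Jersey cattle. KRT18 itself, the target of the capture, was at 51.3, 9.13 and 11.5 FPKM in Kashmiri cattle and at 33.7, 1.59 and 4.51 FPKM in Jersey cattle. Markers of other cells were present too. The summed FPKM of 8 neutrophil markers was 202.9, 525.6 and 652 in Kashmiri and 5156, 6080 and 14607 in Jersey cattle. That of 10 macrophage markers was 109.2, 483.3 and 491.1, and 1014, 2145 and 1852. That of 10 T and NK cell markers was 381.1, 1608 and 373, and 282.6, 171.8 and 101.6. In Jersey cattle the neutrophil sum was thus above the epithelial sum on each day, and the macrophage sum was at D90 and D250. In Kashmiri cattle at D90 the T and NK cell sum was above it. Sums over different lists do not give shares of cells. By quantitative PCR of LSP1, HBA and CD18 at D90, against unsorted milk cells, the paper judged contamination to be minimal. The sum of FPKM over all entries ran from 533249 in Kashmiri cattle at D250 to 1023152 in Kashmiri cattle at D15. Rescaling to an equal sum without the milk protein genes moved the median over all genes, on the log2 scale, from -0.04 to 0.76 for D250 over D15 in Kashmiri cattle, and from -0.10 to -0.75 for Jersey over Kashmiri cattle at D250.

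FASN encodes fatty acid synthase, the multifunctional enzyme that assembles the chain. It was at 829, 142 and 639 FPKM in Kashmiri cattle, and at 188, 9.92 and 228 FPKM in Jersey cattle. Its level was lowest at D90 in both breeds and lower in Jersey than in Kashmiri cattle on each day. Ranked by FPKM among all 21631 names, FASN stood at 141, 491 and 125 in Kashmiri cattle and at 522, 4816 and 588 in Jersey cattle. The highest value was 83.5 times the lowest. Among 8568 genes with at least 1 FPKM in every group, 1.34% had a range at least as wide, and the median gene had a range of 3.50 times. FASN had the highest FPKM of the members in 5 of the 6 groups. In Jersey cattle at D90 it stood below IDH1, ACLY, ACSS2, SREBF1 and ACSS1.

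ACACA encodes acetyl-CoA carboxylase alpha, the cytosolic enzyme that makes the malonyl-CoA used by FASN. Its FPKM was 128, 11.5 and 54.2 in Kashmiri and 29.3, 2.22 and 13 in Jersey cattle. The order of the 3 days was D15, D250 and D90 from high to low in both breeds, and the highest value was 57.8 times the lowest, a range reached by 2.03% of the 8568 genes. ACACB encodes the isozyme at the mitochondrial surface, whose malonyl-CoA is known to restrain the entry of fatty acids into mitochondria for oxidation. It was listed at 0 in Kashmiri cattle at D15 and was at most 0.00969 FPKM in the other 5 groups, so it entered no comparison. Values this low can be failed estimates in this table, since GAPDH, which nearly all cells express, was at most 0.0328 FPKM, so no ratio of the isozymes is given.

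ACSS2 and ACSS1 activate acetate, ACSS2 in the cytosol and nucleus and ACSS1 in mitochondria. ACSS2 was at 382, 105 and 376 FPKM in Kashmiri cattle, and at 113, 16.5 and 97.2 FPKM in Jersey cattle. With FPKM as deposited its values at D15 and D250 stood close together in each breed, and D90 was the low point. ACSS1 was at 185, 77.1 and 65.4 FPKM in Kashmiri cattle, and at 77.9, 16.0 and 17.1 FPKM in Jersey cattle. ACSS1 thus stood highest at D15 in both breeds, with D90 and D250 close together below it. The ratio of ACSS2 to ACSS1 FPKM within a group was 2.07, 1.37 and 5.74 on the 3 days in Kashmiri and 1.45, 1.03 and 5.69 in Jersey cattle. ACSS2 exceeded ACSS1 in all 6 groups, and the ratio was highest at D250 in both breeds. A ratio of 2 genes within a group does not depend on how the groups were scaled, and these pairs were chosen with the values known.

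ACLY encodes ATP citrate lyase, which splits cytosolic citrate to acetyl-CoA and is the main source of that substrate where glucose is the carbon source. The entry that holds it was at 7.43, 17.3 and 11.9 FPKM in Kashmiri cattle, and at 8.83, 17.9 and 9.67 FPKM in Jersey cattle. With FPKM as deposited it was highest at D90 in both breeds, the day on which FASN, ACACA and ACSS2 were lowest; with rescaling to the sum it was slightly higher at D250 than at D90 in Kashmiri cattle (log2 ratio 0.10). Its range of 2.41 times was narrower than that of most genes, since 72.5% of the 8568 genes had a range at least as wide. FASN exceeded the ACLY entry 112, 8.22 and 53.7 times in Kashmiri and 21.4, 0.555 and 23.6 times in Jersey cattle, so that in Jersey cattle at D90 the ACLY entry was the higher.

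IDH1 encodes the cytosolic NADP-dependent isocitrate dehydrogenase, known in ruminants as a main source of NADPH for fatty acid synthesis. IDH1 was at 147, 68.0 and 291 FPKM in Kashmiri cattle, and at 47.1, 26.3 and 75.0 FPKM in Jersey cattle. With FPKM as deposited it was the member whose highest value fell at D250 in both breeds while its lowest fell at D90. With rescaling to the sum FASN shared this, its log2 ratio of D250 over D15 being 0.59 in Kashmiri and 0.04 in Jersey cattle. IDH2, the mitochondrial enzyme of the same reaction, was compared with IDH1 within each group. The ratio of IDH1 to IDH2 FPKM was 5.19, 0.926 and 11.3 in Kashmiri and 1.08, 0.878 and 4.22 in Jersey cattle. IDH2 was thus slightly above IDH1 at D90 in both breeds, and IDH1 was above IDH2 in the other groups.

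FADS2 encodes the delta-6 desaturase, which acts on polyunsaturated fatty acids and takes no part in building the chain. It was at 0.511, 0.734 and 0.969 FPKM in Kashmiri cattle, and at 0.966, 4.12 and 1.16 FPKM in Jersey cattle. Only 2 of the 6 values reached 1 FPKM, the filter used below, both in Jersey cattle. FADS1, the delta-5 desaturase encoded beside it, was at 6.43, 3.67 and 6.07 FPKM in Kashmiri cattle and at 1.72, 6.11 and 4.25 FPKM in Jersey cattle. The ratio of FADS2 to FADS1 FPKM was at most 0.2 in Kashmiri cattle and between 0.273 and 0.675 in Jersey cattle.

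SREBF1 was at 91.8, 33.8 and 26.6 FPKM in Kashmiri cattle, and at 34.9, 16.4 and 23.7 FPKM in Jersey cattle. With FPKM as deposited the order of the days differed between the breeds, with D250 lowest in Kashmiri and D90 lowest in Jersey cattle, while with rescaling to the sum D90 was lowest in Kashmiri cattle too. Its highest value was 5.59 times its lowest, and 28.2% of the 8568 genes had a range at least as wide. SREBF2, its paralog and the better known activator of cholesterol synthesis, was at 72.7, 111 and 61.4 FPKM in Kashmiri cattle and at 45.2, 53.5 and 62.5 FPKM in Jersey cattle. SREBF1 exceeded SREBF2 in 1 of the 6 groups, Kashmiri cattle at D15, where the ratio of their FPKM was 1.26. The plot of levels by day shows these patterns side by side.

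**Figure D1:**
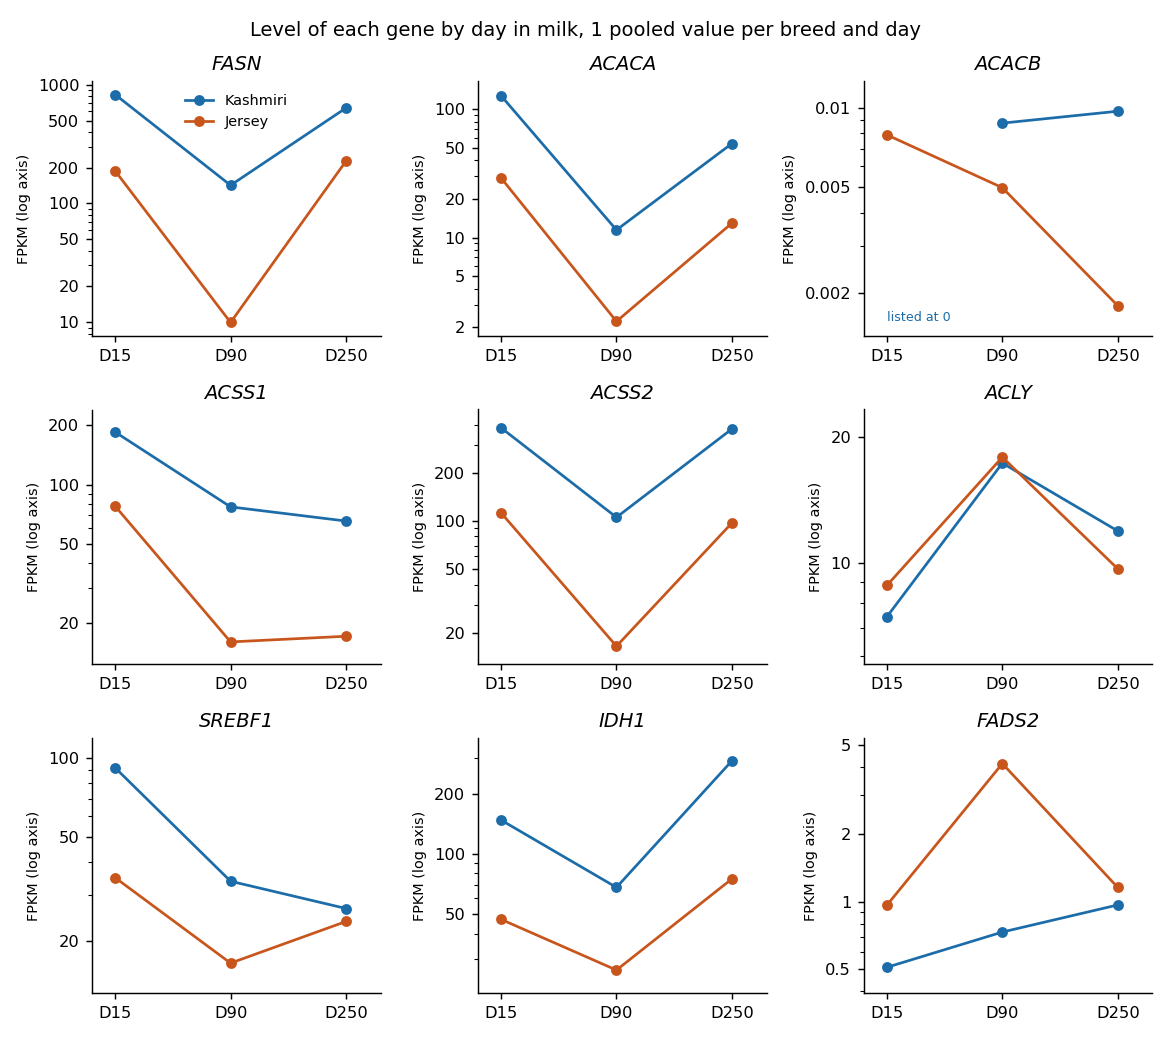
Pooled FPKM of each of the 9 genes found (logarithmic axis, each panel with its own scale) against day in milk, with 1 line for Kashmiri and 1 for Jersey cattle; each point is 1 pooled value and carries no error. FASN, ACACA and ACSS2 trace a V with the low point at D90 in both breeds, and the ACLY entry peaks at D90 with 17.3 and 17.9 FPKM.

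The first comparison was between D15 and D90 within a breed. Genes were compared if 1 of the groups reached 1 FPKM or more, ratios were taken as log2 of (FPKM + 1), which understates the change of genes near 1 FPKM, and a gene was counted at a difference of at least 2-fold on this scale. In Kashmiri cattle, 6 of 7 members compared were at least 2-fold lower at D90 than at D15, beside 18.8% of all 11297 genes. The ACLY entry was the 1 member at least 2-fold higher, beside 14.7% of all genes. In Jersey cattle, 5 of 8 members were lower by the limit, beside 16.9% of 11080 genes, and FADS2 alone was higher, beside 12.8%. The median log2 ratio of the members was -1.42 in Kashmiri and -1.63 in Jersey cattle, where the medians of all genes were -0.01 and -0.07.

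FASN was 5.82 times higher at D15 than at D90 in Kashmiri cattle, and 19.0 times higher in Jersey cattle. The log2 ratios of D90 over D15 were -2.53 and -4.12. For ACACA the corresponding log2 ratios were -3.37 and -3.23, so that it was the member with the lowest ratio in Kashmiri cattle and FASN was in Jersey cattle. ACSS2 followed with -1.85 and -2.70, and ACSS1 with -1.25 and -2.21. SREBF1 had log2 ratios of -1.42 and -1.04, smaller in size than those of FASN and ACACA in both breeds. The log2 ratio of IDH1 was -1.11 in Kashmiri and -0.82 in Jersey cattle, on either side of the 2-fold limit. The ratio of the ACLY entry was 1.12 in Kashmiri and 0.94 in Jersey cattle, also on either side of it, and that of FADS2 was 1.38 in Jersey cattle, from 0.966 to 4.12 FPKM. The direction of every one of these values was kept under each rescaling, pseudocount and filter tried. Rescaling to the sum placed ACSS1 (-0.93) and IDH1 (-0.79) in Kashmiri cattle and SREBF1 (-0.80) in Jersey cattle inside the 2-fold limit.

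The epithelial markers moved with this result. Of the 13 found, 12 were at least 2-fold lower at D90 than at D15 in each breed, and their median log2 ratios were -2.44 (Kashmiri) and -3.74 (Jersey). The difference between the median of the members and that of the markers was 1.02 in Kashmiri and 2.11 in Jersey cattle, a median that includes the ACLY entry and, in Jersey cattle, FADS2, both above 0. FASN stood further below D15 than the median marker in both breeds, and ACACA did in Kashmiri cattle. Other cell types moved as well. In Kashmiri cattle at D90, 5 of 8 neutrophil markers (median log2 ratio 1.06), 6 of 8 macrophage markers (1.69), 7 of 10 T and NK cell markers (1.98) and 6 of 6 B cell markers (1.95) were at least 2-fold higher. In Jersey cattle, 2 of 8 neutrophil markers (0.54) and 3 of 9 macrophage markers (0.70) were higher, while 6 of 10 T and NK cell markers (-1.04) were lower. In cells taken in bulk, fewer epithelial cells and less of an mRNA per cell cannot be told apart, and the part of the other cell types in the result was not tested.

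The second comparison was between D90 and D250, and it shares the D90 values with the first. In Kashmiri cattle, 4 of 7 members were at least 2-fold higher at D250, beside 8.95% of 11414 genes, and 0 were lower, beside 8.77%. In Jersey cattle, 4 of 8 were higher, beside 16.6% of 10955 genes, and FADS2 was the 1 that was lower, beside 4.22%. The same 4 genes, FASN, ACACA, ACSS2 and IDH1, were past the limit in both breeds. FASN was 4.49 times higher at D250 than at D90 in Kashmiri and 23.0 times higher in Jersey cattle, ACACA 4.73 and 5.84 times, ACSS2 3.57 and 5.89 times, and IDH1 4.28 and 2.85 times. The median log2 ratio of the members was 1.82 in Kashmiri and 0.99 in Jersey cattle, beside 0.03 and 0.15 for all genes.

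The other members did not share this pattern. ACSS1 had a log2 ratio of -0.23 in Kashmiri cattle, which became 0.40 with rescaling to the sum, and of 0.09 in Jersey cattle, which became -0.37 with the same rescaling and -0.15 with the upper quartile. SREBF1 had -0.34 in Kashmiri cattle, 0.29 with rescaling to the sum, and 0.50 in Jersey cattle. The ACLY entry had -0.50 in Kashmiri cattle, 0.10 with rescaling to the sum, and -0.82 in Jersey cattle. FADS2 had -1.25 in Jersey cattle. The direction of ACSS1, SREBF1 and the ACLY entry in Kashmiri cattle between these days thus depended on the scaling. Minus the median of all genes under the same scaling, they were at -0.26, -0.37 and -0.53 as deposited. With rescaling to the sum they were at -0.19, -0.30 and -0.49 against that median. Of the epithelial markers, 8 of 13 in Kashmiri and 11 of 13 in Jersey cattle were at least 2-fold higher at D250 than at D90, with medians of 1.5 and 2.65. The median of the members minus that of the markers was 0.32 in Kashmiri cattle, turning to -0.50 with no filter on low values, and -1.66 in Jersey cattle.

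The third comparison set D250 against D15. In Kashmiri cattle, 3 of 7 members were at least 2-fold lower at D250, beside 14.5% of 11487 genes, and 0 were higher, beside 11.2%. In Jersey cattle, 2 of 8 were lower, beside 17.9% of 11320 genes, and 0 were higher, beside 24.5%. ACACA and ACSS1 were below the limit in both breeds, ACACA with log2 ratios of -1.23 in Kashmiri and -1.12 in Jersey cattle, and ACSS1 with -1.48 and -2.12. SREBF1 was past it in Kashmiri cattle, with -1.75, and not in Jersey cattle, with -0.54. IDH1 stood on the other side of 0, with 0.98 in Kashmiri cattle, just inside the limit, and 0.66 in Jersey cattle. With rescaling to the sum, 0 members were lower by the limit in Kashmiri and 2, IDH1 (1.94) and the ACLY entry (1.49), were higher. The median of all genes was 0.76 under that scaling. Minus that median IDH1 was at 1.18 and the ACLY entry at 0.73, the latter inside the limit.

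FASN and ACSS2 ended near their D15 level. The log2 ratio of FASN was -0.37 in Kashmiri cattle, -0.10 with the upper quartile and 0.59 with rescaling to the sum, and it was 0.27 in Jersey cattle. ACSS2 had -0.02 in Kashmiri cattle, 0.25 with the upper quartile and 0.94 with rescaling to the sum, and -0.21 in Jersey cattle. Taken against the median of all genes under the same scaling, FASN in Kashmiri cattle was at -0.33, -0.29 and -0.17, and ACACA was at -1.19, -1.15 and -1.03, with the values as deposited, the upper quartile and the sum in turn. The median of the members was -0.37 in Kashmiri cattle, turning to 0.59 with rescaling to the sum, and -0.05 in Jersey cattle, beside -0.04 and 0.07 for all genes. The epithelial markers had medians of -0.94 and -1.01 in this comparison, the first turning to 0.02 with rescaling to the sum.

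**Figure D2:**
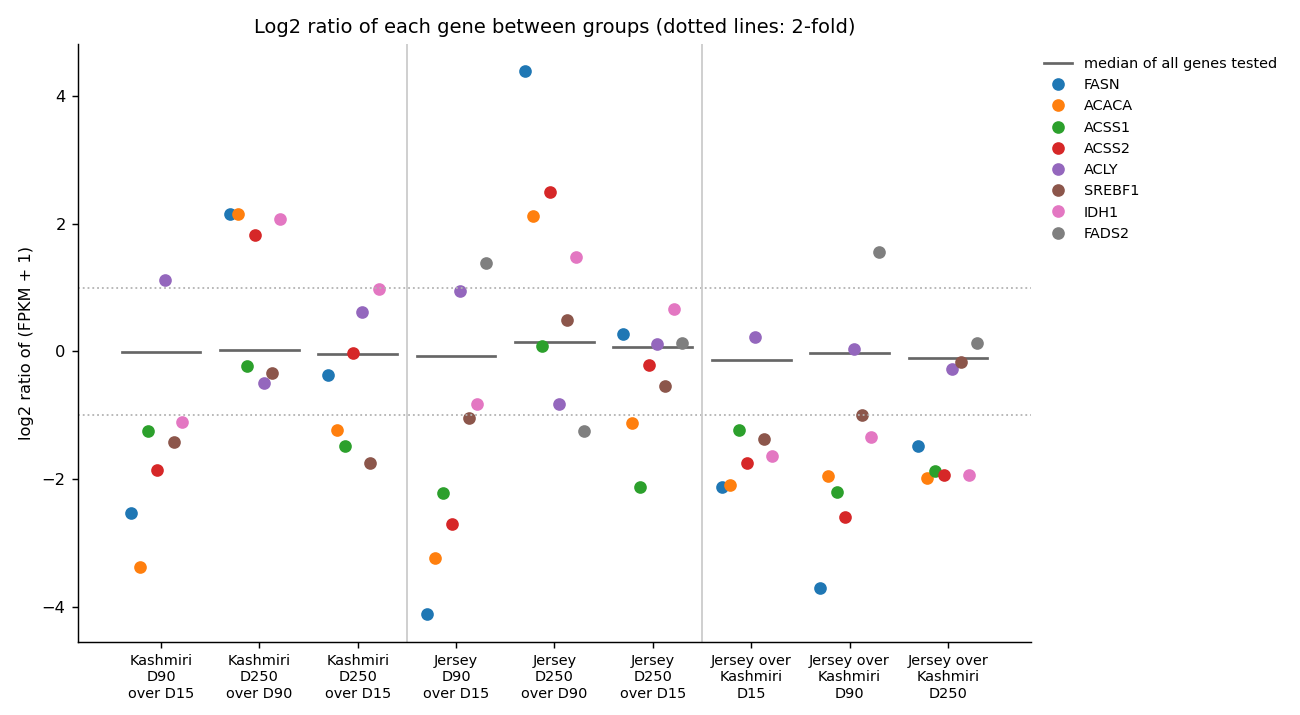
Log2 ratio of (FPKM + 1) of each gene compared in each of the 9 comparisons, 6 between days and 3 between breeds, with dotted lines at the 2-fold limit and a grey bar at the median of all genes; each point is a ratio of 2 pooled values and carries no error. For D90 over D15 most genes lie below the lower line in both breeds, with FASN at -4.12 in Jersey cattle, and for D250 over D90 FASN, ACACA, ACSS2 and IDH1 lie above the upper line.

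Between the breeds, the enzymes of the acetate route were lower in Jersey cattle on each day. At D15, 6 of 7 members were at least 2-fold lower in Jersey than in Kashmiri cattle, beside 13.0% of 11202 genes, and 0 were higher, beside 15.9%. At D90, 5 of 8 were lower, beside 15.9% of 11209 genes, and FADS2 was higher, beside 17.0%. At D250, 5 of 8 were lower, beside 11.7% of 11642 genes, and 0 were higher, beside 22.8%. The median log2 ratio of the members was -1.63, -1.65 and -1.68 on the 3 days, and that of all genes was -0.13, -0.03 and -0.10.

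FASN was 4.40, 14.4 and 2.80 times higher in Kashmiri than in Jersey cattle at D15, D90 and D250, with log2 ratios of Jersey over Kashmiri cattle of -2.13, -3.71 and -1.48. The distance was widest at D90 and narrowest at D250 with FPKM as deposited, and with rescaling to the sum the ratios were -1.72, -3.39 and -2.26, narrowest at D15. Taken against the median of all genes in the same comparison, the ratios of FASN were -2.00, -3.68 and -1.38 as deposited. With rescaling to the sum they were -1.94, -3.65 and -1.51 against that median, narrowest at D250 again. ACACA was 4.38, 5.17 and 4.18 times higher in Kashmiri cattle. Its log2 ratios minus the median of all genes were nearly constant, at -1.96, -1.92 and -1.88 as deposited and -1.90, -1.95 and -1.99 with rescaling to the sum. Not taken against that median, the ratios with rescaling to the sum were -1.68, -1.69 and -2.74. ACSS2 was 3.40, 6.38 and 3.87 times higher and ACSS1 2.37, 4.82 and 3.83 times higher in Kashmiri cattle. For IDH1 the folds were 3.13, 2.59 and 3.88.

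SREBF1 was 2.63 times higher in Kashmiri cattle at D15, 2.06 times at D90 and 1.12 times at D250. On the log2 scale with the pseudocount its ratio at D90 was -1.0 after rounding and just short of the limit, and at D250 it was -0.16. Minus the median of all genes, the ratios were -1.24, -0.97 and -0.06 as deposited and -1.18, -0.93 and -0.16 with rescaling to the sum. Not taken against that median, the ratios with rescaling to the sum were -0.96, -0.67 and -0.91, smallest in size at D90. The distance between the breeds in SREBF1, taken against all genes, was thus smallest at D250. That of FASN was smallest on that day too, at -1.38 as deposited and -1.51 with rescaling to the sum. Against the same median as deposited, ACACA, ACSS1, ACSS2 and IDH1 were at -1.88, -1.78, -1.84 and -1.84 at D250. The ACLY entry differed little, with log2 ratios of 0.22, 0.04 and -0.28, the one at D90 turning to -0.09 with the upper quartile and the one at D250 reaching -1.0 with rescaling to the sum. FADS2 was 5.62 times higher in Jersey cattle at D90, a log2 ratio of 1.56, and its ratio at D250 was 0.13, turning to -0.12 with the upper quartile and -0.28 with rescaling to the sum.

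The counts were repeated with a 4-fold limit on the scale of log2 of (FPKM + 1). For D90 over D15, FASN and ACACA were past it in Kashmiri cattle, beside 5.16% of all genes, and FASN, ACACA, ACSS1 and ACSS2 in Jersey cattle, beside 3.78%. For D250 over D90, FASN, ACACA and IDH1 were at least 4-fold higher in Kashmiri cattle, beside 0.859%, and FASN, ACACA and ACSS2 in Jersey cattle, beside 3.72%. For D250 over D15, ACSS1 in Jersey cattle was the only member past it, lower at D250, beside 3.42%, while 0 were lower in Kashmiri cattle, beside 2.20%. Between the breeds, FASN and ACACA were at least 4-fold lower in Jersey cattle at D15, beside 2.12% of all genes, and FASN, ACSS1 and ACSS2 at D90, beside 5.17%, while at D250 there were 0, beside 1.37%. In the opposite directions 0 members passed the 4-fold limit. The shares of all genes there were 2.34% and 2.98% higher for D90 over D15 and 1.12% and 0.466% lower for D250 over D90, in Kashmiri and Jersey cattle in turn. They were 1.85% and 9.17% higher for D250 over D15, and 6.45%, 6.58% and 10.9% higher in Jersey cattle on the 3 days. Plain folds of FPKM passed 4-fold in some further cases. ACACA was 5.17 and 4.18 times higher in Kashmiri cattle at D90 and D250, with log2 ratios of -1.95 and -1.98 on this scale. FADS2 in Jersey cattle at D90 was 4.27 times its D15 value and 5.62 times the Kashmiri value, with 1.38 and 1.56.

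Other cell types differed between the breeds alongside these genes. All 8 neutrophil markers found were at least 2-fold higher in Jersey cattle on each day, with median log2 ratios of 4.16, 3.97 and 4.79. The macrophage markers had medians of 3.77, 1.93 and 0.10. The T and NK cell markers were lower in Jersey cattle for 2 of 10 at D15, 8 of 10 at D90 and 7 of 9 at D250, with medians of -0.22, -3.47 and -1.67. Of the 13 epithelial markers, 5, 11 and 9 were at least 2-fold lower in Jersey cattle at D15, D90 and D250, with medians of -0.91, -2.28 and -1.19. The median of the members minus that of the epithelial markers was -0.71, 0.63 and -0.49 on the 3 days, so that the members stood further below Kashmiri cattle than the markers did on 2 of the 3 days. The part of the other cell types in the difference between the breeds was not tested.

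The size of the stage difference was then set side by side in both breeds, as the Jersey minus the Kashmiri log2 ratio. For D90 over D15, FASN had -1.58, ACSS1 -0.97, ACSS2 -0.85 and the ACLY entry -0.18. ACACA had 0.14, SREBF1 0.37, IDH1 0.29 and FADS2, below 1 FPKM in Kashmiri cattle, 1.18. FASN was thus further below its D15 level in Jersey cattle by 1.58 on the log2 scale, and ACACA stood at nearly the same distance in both breeds. For D250 over D90, FASN had 2.23, SREBF1 0.84, ACSS2 0.66, ACSS1 0.32, ACACA -0.03, the ACLY entry -0.32, IDH1 -0.61 and FADS2 -1.43. With rescaling to the sum, the Kashmiri and Jersey ratios were 0.29 and 0.04 for SREBF1 and 2.47 and 2.02 for ACSS2. Both differences thus turned below 0. Minus the median of all genes under that scaling, SREBF1 was at -0.30 and 0.29 and ACSS2 at 1.88 and 2.27. For D250 over D15, the highest of the members as deposited was SREBF1 with 1.21, followed by FASN with 0.65. With rescaling to the sum, the Kashmiri and Jersey ratios were -0.81 and -0.76 for SREBF1, nearly equal. For FASN they were 0.59 and 0.04, a difference below 0. Minus the median of all genes under that scaling, SREBF1 was at -1.57 and -0.65 and FASN at -0.17 and 0.15. The medians of the 8 members were -0.02, 0.15 and -0.22 for these 3 changes, beside 0.02, 0.10 and 0.13 for all genes. The median of 0.15 turned to -0.20 with the upper quartile and to -0.91 with rescaling to the sum. These differences were not tested.

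As a share of the FPKM sum over all entries, the members together held 0.173%, 0.0551% and 0.275% in Kashmiri and 0.0655%, 0.0169% and 0.0516% in Jersey cattle. In Kashmiri cattle the share was thus higher at D250 than at D15, although the members' summed FPKM, 1771 at D15 and 1465 at D250, was lower, because the sum over all entries was smaller. The sum lacks most of the milk protein mRNA, and not evenly. CSN1S1, CSN2 and PAEP were listed at 0 in every group but Jersey cattle at D90, CSN3 was listed at 0 in 3 groups and LALBA in 2, and CSN1S2 was not found. The share, and the rescaling to the sum without the milk protein genes, are to be read with that limit. FASN alone made up 46.8%, 31.2% and 43.6% of the members' summed FPKM in Kashmiri and 37.7%, 9.07% and 49.1% in Jersey cattle.

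To set the members against the epithelial part of each sample, each FPKM was divided by the geometric mean of the 13 epithelial markers of the same group, a measure that does not depend on the scaling of the groups and was chosen with the values known. That mean was 147.5, 31.3 and 85.08 FPKM in Kashmiri and 75.85, 5.537 and 35.31 FPKM in Jersey cattle. On this log2 scale FASN was at 2.49, 2.19 and 2.91 in Kashmiri cattle and at 1.31, 0.84 and 2.69 in Jersey cattle. Its range over the 6 groups was 2.07, against 6.38 for log2 FPKM. For ACACA the range was 1.25 against 5.85, and for ACSS2 it was 1.57 against 4.53. The range of these 3 genes was thus narrower against the markers than in FPKM. The marker mean was itself lowest at D90 in both breeds, and ELF5, among the genes most like FASN, is among the 13 markers. Dividing by that mean narrows the range of genes that follow its course and widens that of genes that depart from it. Neither is thus a result apart from the FPKM.

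Relative to the markers, ACACA was at -0.20, -1.45 and -0.65 in Kashmiri cattle and at -1.37, -1.32 and -1.44 in Jersey cattle. It thus lay within a narrow band in Jersey cattle and in Kashmiri cattle at D90, and higher in Kashmiri cattle at D15 and D250. Relative FASN was highest at D250 in both breeds and lower in Jersey than in Kashmiri cattle on each day, by the least at D250. For IDH1 the values were -0.00, 1.12 and 1.78 in Kashmiri and -0.69, 2.25 and 1.09 in Jersey cattle. IDH1, SREBF1, ACSS1 and ACSS2 were higher at D90 than at D15 by this measure in both breeds, the reverse of their FPKM, ACSS2 going from 1.37 to 1.75 in Kashmiri and from 0.57 to 1.58 in Jersey cattle. The range of the ACLY entry widened to 6.0, from 1.27 for log2 FPKM, that of FADS2 to 7.75, from 3.01, and that of SREBF1 to 3.25, from 2.48, so that these 3 varied more against the markers than on their own. The plot of levels against the epithelial markers shows these values.

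**Figure D3:**
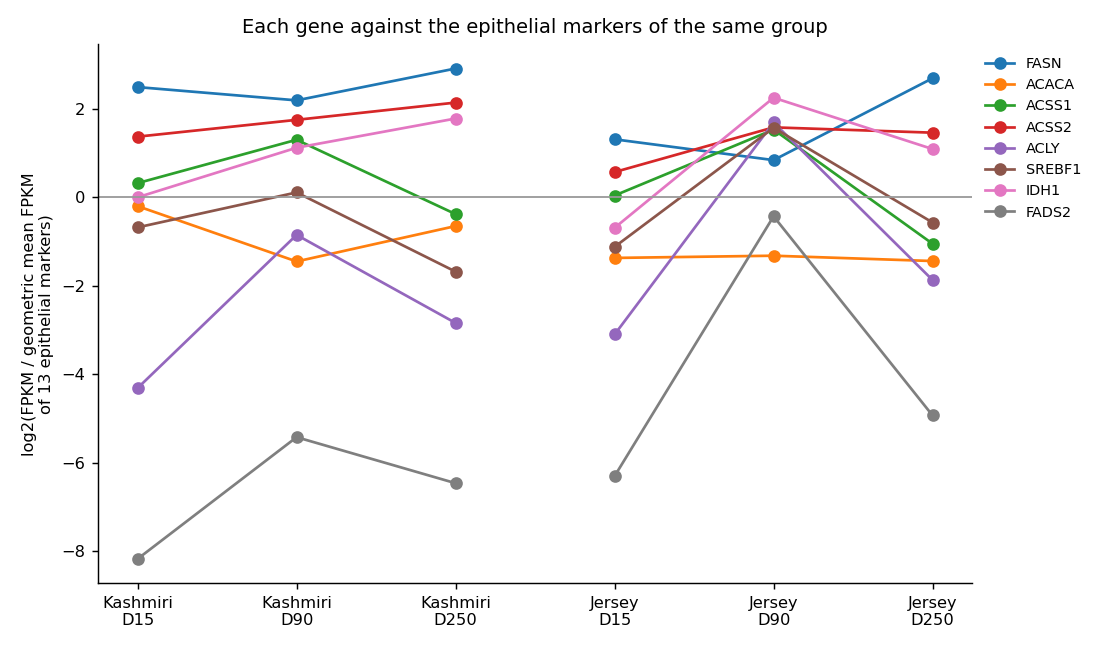
Log2 of the FPKM of each gene over the geometric mean FPKM of 13 epithelial markers in the same group, for the 6 groups of breed and day; each point comes from 1 pooled value and carries no error. FASN and ACSS2 lie above 0 and ACACA below 0 in every group, within 2.07, 1.57 and 1.25 log2 units, while the ACLY entry and FADS2 spread over 6.0 and 7.75.

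Ratios between members within a group showed which moved apart. FASN exceeded ACACA 6.46, 12.4 and 11.8 times in Kashmiri and 6.44, 4.47 and 17.6 times in Jersey cattle. At D15 the ratio was thus nearly the same in both breeds, and from D15 to D90 it went up in Kashmiri and down in Jersey cattle. FASN over ACSS2 was 2.17, 1.35 and 1.7 in Kashmiri and 1.67, 0.601 and 2.35 in Jersey cattle. FASN over SREBF1 was 9.03, 4.21 and 24.1 in Kashmiri and 5.4, 0.604 and 9.62 in Jersey cattle, so that FASN was highest relative to SREBF1 at D250 in both breeds. FASN over ELF5, the transcription factor of the alveolar epithelium, was 0.461, 0.69 and 0.83 in Kashmiri and 0.558, 0.788 and 0.655 in Jersey cattle. That ratio stayed between 0.461 and 0.83 while FASN itself ranged 83.5 times. ELF5 ranked 3 of 4307 genes by likeness to FASN in these same values, so this narrow range is no separate result. FASN over KRT7 ran from 0.746 to 3.24 and over KRT19 from 0.112 to 0.485. Other members ranged widely against ELF5, IDH1 from 0.082 to 2.09, SREBF1 from 0.0345 to 1.3 and ACSS1 from 0.049 to 1.27. FASN over KRT18 ranged more widely than over the other markers named, at 16.2, 15.6 and 55.4 in Kashmiri and 5.6, 6.24 and 50.6 in Jersey cattle. It was highest at D250 in both breeds.

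**Figure D4:**
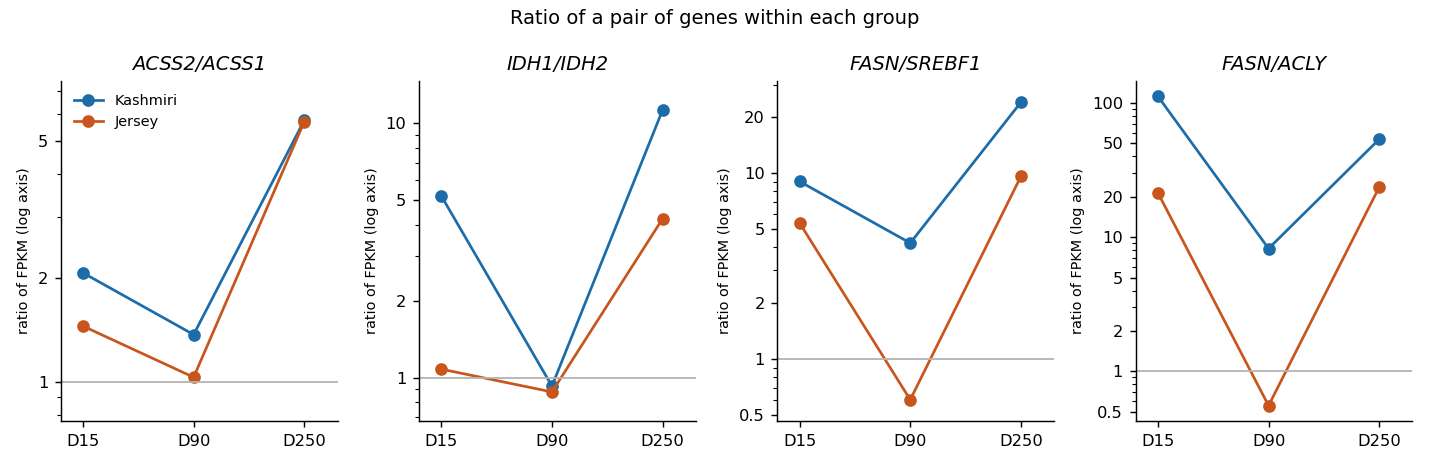
Ratio of the FPKM of a pair of genes within each group (logarithmic axis) against day in milk, with 1 line for each breed and a grey line at 1; each point is a ratio of 2 pooled values and carries no error. ACSS2 over ACSS1, IDH1 over IDH2 and FASN over SREBF1 are highest at D250 in both breeds (5.74, 11.3 and 24.1 in Kashmiri cattle), and FASN over SREBF1 and over the ACLY entry drops below 1 in Jersey cattle at D90 (0.604 and 0.555).

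The genes whose pattern over the 6 groups was most like that of FASN were found by the root mean square difference of log2(FPKM + 1), after each gene was centred on its own mean, among 4307 genes with a mean of at least 10 FPKM. For every gene the 6 values come from the same cows, libraries and mixes of cells, and likeness here says nothing of shared control. The 10 most alike were EFHD1 (0.20), GCAT (0.21), ELF5 (0.29), DNAJC12 (0.34), MARC1 (0.36), RASAL1 (0.38), TPD52L1 (0.39), GSTM3 (0.40), FABP3 (0.41) and NIPAL2 (0.41), against a median of 2.11 over all genes ranked. Of these, EFHD1 was at 273.3, 30.51 and 157.5 FPKM in Kashmiri and at 58.23, 1.868 and 62.98 FPKM in Jersey cattle. FABP3, a fatty acid binding protein abundant in lactating mammary gland, was at 10560, 2159 and 6720 FPKM and at 2454, 164.3 and 1529 FPKM.

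Among the members, ACSS2 ranked 32 (0.63) and ACACA ranked 53 (0.75) by likeness to FASN. IDH1 ranked 155 (1.21), ACSS1 ranked 240 (1.46) and SREBF1 ranked 358 (1.60). SREBF1 had other genes nearest to it, namely SERP1 (0.16), WARS (0.19), SMIM10L1 (0.20), JTB (0.21) and EEF1AKMT1 (0.21), against a median of 0.92. ACSS1 ranked 1272 by likeness to SREBF1 (0.67), and FASN ranked 3540 (1.60). The measure counts the size of the differences as well as their shape, so that FASN, with a range of 83.5 times, lies far from SREBF1, with 5.59 times, whatever its shape.

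A wider set of 67 genes of the same metabolism, of which 65 were found and MLYCD and PRKAG2 were not, was described by list. In D90 over D15, 11 of 55 compared were at least 2-fold lower and 14 higher in Kashmiri cattle, with a median log2 ratio of 0.20, and 5 of 53 were lower and 7 higher in Jersey cattle, with a median of 0.18. Between the breeds, 11 of 53 were lower and 7 higher in Jersey cattle at D15, 7 of 54 lower and 8 higher at D90, and 6 of 58 lower and 8 higher at D250. The shares of all genes, lower and higher, were 18.8% and 14.7% in Kashmiri and 16.9% and 12.8% in Jersey cattle for D90 over D15, and between the breeds 13.0% and 15.9%, 15.9% and 17.0%, and 11.7% and 22.8%.

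The list nearest to the members was that of 10 genes that supply acetyl-CoA, citrate and ketone body carbon. In Kashmiri cattle, 6 of the 10 were at least 2-fold lower and 0 higher at D90 than at D15 (median log2 ratio -1.72), beside 18.8% and 14.7% of all genes. At D250 against D90, 0 were lower and 5 higher (median 0.89), beside 8.77% and 8.95%. In Jersey cattle, 4 of 10 were lower at D90 than at D15, beside 16.9% of all genes, with a median of -0.10 that turned to 0.01 with the upper quartile. BDH1, the mitochondrial beta-hydroxybutyrate dehydrogenase, was at 71.7, 7.54 and 27.0 FPKM in Kashmiri cattle and at 25.9, 0.448 and 3.61 FPKM in Jersey cattle. AACS, which activates acetoacetate in the cytosol, was at 47.9, 9.31 and 28.0 FPKM and at 15.9, 4.97 and 8.70 FPKM. Both had their low point at D90 in each breed, as FASN had. PC, the pyruvate carboxylase, shared it, with 25.6, 2.77 and 8.86 FPKM in Kashmiri and 9.73, 1.79 and 5.32 FPKM in Jersey cattle. SLC16A1, a monocarboxylate carrier, was at 31.2, 6.77 and 10.8 FPKM in Kashmiri cattle, while its 3 values in Jersey cattle, 12, 11.1 and 14.8 FPKM, lay close together.

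The genes of the other routes to NADPH formed a list of 9. In D90 over D15 in Kashmiri cattle, 0 of 8 compared were at least 2-fold lower and 4 higher, with a median of 0.86, beside 18.8% and 14.7% of all genes. In Jersey cattle 0 of 8 were lower and 0 higher, with a median of 0.38, beside 16.9% and 12.8%. IDH1 had -1.11 and -0.82 in the same comparisons. ME1, the cytosolic malic enzyme, was at 1.41 FPKM in Kashmiri cattle at D250 and at most 0.0514 FPKM in the other groups. ME2, its mitochondrial relative, was at 2.88, 8.73 and 7.89 FPKM in Kashmiri and at 10.6, 20.2 and 65.1 FPKM in Jersey cattle.

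Of the genes that act beside ACACA and FASN, THRSP, a protein known to raise mammary fatty acid synthesis, was at 0.839, 0.418 and 1.45 FPKM in Kashmiri cattle and at 0.415, 0.0394 and 0.431 FPKM in Jersey cattle. Its values were low and lowest at D90 in both breeds. OLAH, the thioesterase that ends short chains in the mammary gland of some species, was listed at 0 in all 6 groups. PRKAA1, a catalytic subunit of the AMP-activated kinase that inhibits acetyl-CoA carboxylase, was at 1.24, 4.96 and 3.79 FPKM in Kashmiri cattle and at 1.84, 6.83 and 21.6 FPKM in Jersey cattle. PRKAA2, the other catalytic subunit, was at 6.83, 0.314 and 1.35 FPKM in Kashmiri and at 1.06, 0.0708 and 0.927 FPKM in Jersey cattle. The ratio of PRKAA2 to PRKAA1 was 5.49, 0.0634 and 0.357 in Kashmiri and 0.578, 0.0104 and 0.043 in Jersey cattle, lowest at D90 in both. The low PRKAA2 values behind these ratios can be failed estimates, so their size is uncertain.

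Chain elongation and desaturation formed a list of 19 genes. In D90 over D15, 2 of 16 compared were at least 2-fold lower and 5 higher in Kashmiri cattle, and 1 of 13 was lower and 5 higher in Jersey cattle, beside 18.8% lower and 14.7% higher, and 16.9% and 12.8%, of all genes. ELOVL5, an elongase of polyunsaturated chains, was at 8.49, 24.1 and 13.2 FPKM in Kashmiri and at 6.16, 21.1 and 24.9 FPKM in Jersey cattle. ELOVL6, which lengthens the palmitate made by FASN, was at most 1.68 FPKM in any group. HACD2, a dehydratase of the elongation cycle, was at 2.99, 8.87 and 10.7 FPKM and at 3.4, 21.3 and 17.8 FPKM. These elongation genes were thus higher at D90 than at D15 where FASN was lower. CYB5A, the cytochrome b5 that passes electrons to desaturases, followed FASN instead, with 95.9, 15.2 and 56.7 FPKM in Kashmiri and 27.1, 7.51 and 23.2 FPKM in Jersey cattle. FADS3, a relative of FADS1 and FADS2, was at 0.968, 4.29 and 10.4 FPKM in Kashmiri cattle and at 8.60, 9.87 and 4.57 FPKM in Jersey cattle.

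The control of SREBP1 and related factors formed a list of 17 genes, of which 14 could be compared. In D90 over D15, 2 were at least 2-fold lower and 3 higher in Kashmiri cattle, and 0 lower and 1 higher in Jersey cattle, against the same shares of all genes. SCAP, the escort protein that carries SREBP to the Golgi, was at 14.7, 17.0 and 7.80 FPKM in Kashmiri and at 13.3, 6.79 and 4.10 FPKM in Jersey cattle. INSIG1, which retains SCAP in the endoplasmic reticulum, was at 101, 98.8 and 80.2 FPKM in Kashmiri cattle and at 29.9, 54.1 and 64.6 FPKM in Jersey cattle. INSIG2 was lower, between 2.80 and 8.30 FPKM. NR1H3, the liver X receptor alpha that activates SREBF1, was at 6.78, 17.8 and 7.85 FPKM in Kashmiri and at 32.9, 43.1 and 25.7 FPKM in Jersey cattle, highest at D90 in both, the reverse of FASN. RXRA, its partner, was at 33.7, 8.44 and 20.2 FPKM in Kashmiri and at 56.6, 64.3 and 117 FPKM in Jersey cattle. PPARG was at 0.258, 6.02 and 8.81 FPKM in Kashmiri and at 5.25, 10.6 and 6.34 FPKM in Jersey cattle. MLXIPL, the carbohydrate response factor, was at most 0.337 FPKM. NR1H3 and PPARG are also known in macrophages, whose markers summed to 109.2, 483.3 and 491.1 FPKM in Kashmiri and 1014, 2145 and 1852 FPKM in Jersey cattle, and their part in these values was not tested.

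The neighbouring lipid routes were compared last. For 10 genes of triglyceride assembly, the median log2 ratio of D90 over D15 was -1.40 in Kashmiri cattle and -0.13 in Jersey cattle, the latter turning to 0.02 with the upper quartile and 0.11 with rescaling to the sum, and that of D250 over D90 was 0.55 and 1.20. For 13 of 14 genes of cholesterol synthesis found (FDPS was not), the same medians were 0.76 and 1.06, then -0.42 and -0.25. The value of -0.42 turned to 0.22 with rescaling to the sum. From D15 to D90 cholesterol synthesis thus lay on the other side of 0 from the members in both breeds. In Kashmiri cattle 5 of 13 of its genes, and in Jersey cattle 7 of 13, were at least 2-fold higher at D90 than at D15, beside 14.7% and 12.8% of all genes. In each breed 1 was lower, beside 18.8% and 16.9%. For Jersey over Kashmiri cattle, the cholesterol medians as deposited were -1.10, -0.62 and -0.25 on the 3 days. Those of the members stayed between -1.63 and -1.68. Among the cholesterol genes, 8 of 13 were at least 2-fold lower in Jersey cattle at D15, beside 13.0% of all genes. With rescaling to the sum the cholesterol medians were -0.71, -0.29 and -1.02, and those of the members -1.21, -1.34 and -2.45. The median of all genes under that scaling was 0.22, 0.26 and -0.75. The course of both over the days, not taken against that median, thus depended on the scaling.

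**Figure D5:**
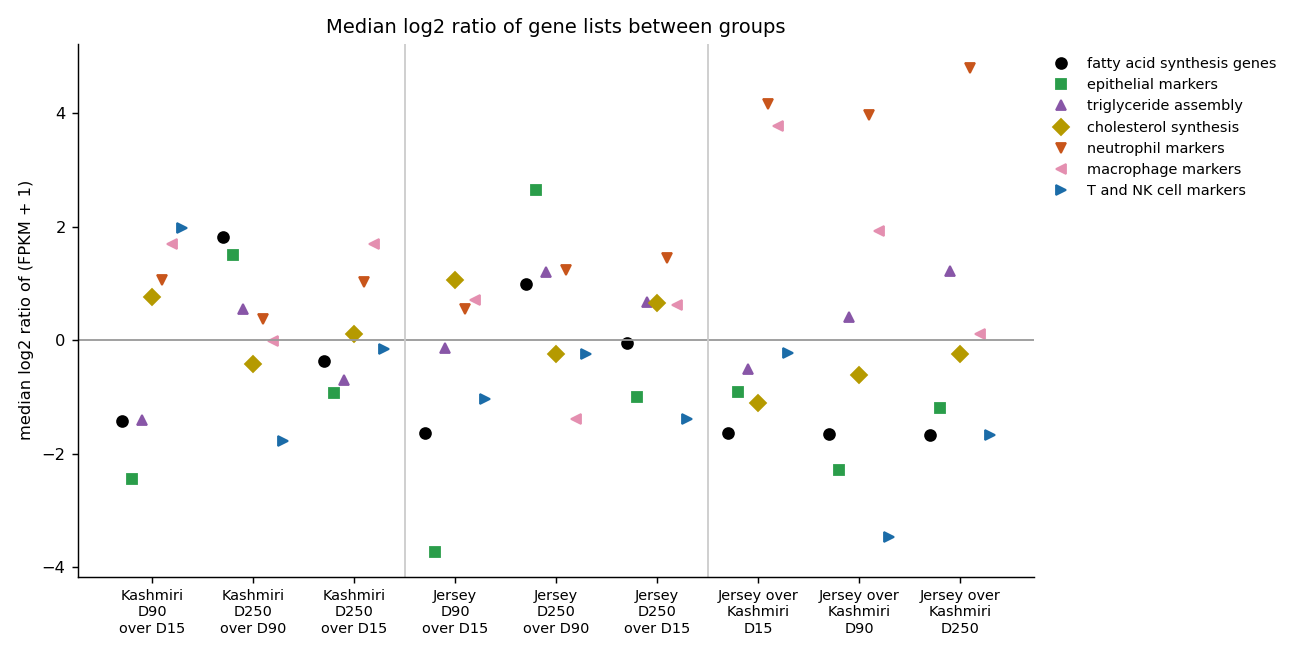
Median log2 ratio of (FPKM + 1) of the fatty acid synthesis genes, triglyceride assembly, cholesterol synthesis and the markers of epithelial cells, neutrophils, macrophages, and T and NK cells in each comparison; each median is over the genes of a list with at least 1 FPKM in either group, and the points carry no error. The fatty acid synthesis genes (-1.42 and -1.63) and the epithelial markers (-2.44 and -3.74) lie below 0 for D90 over D15 in both breeds, while cholesterol synthesis (0.76 and 1.06) lies above it.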

How the data were processed

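RNA from epithelial cells of milk was sequenced in 6 groups of breed and day. Per the study's methods, reads were trimmed by Trimmomatic and aligned by Bowtie 2 and TopHat to the bovine build UMD3.1. Cufflinks assembled and Cuffdiff quantified the genes. The deposited FPKM, which the authors normalised to transcript length and mapped reads, held 1 pooled value per gene and group, with no columns per cow; the day of each labelled stage was taken from the study's methods, and the columns named local were read as Kashmiri cattle. Because values per sample were needed for limma, the model planned for such values was not run, and no error, interval or p-value was computed. The reads behind each value are not given in the sources used here, so precision is unknown.

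Of entries sharing a name, the one of highest mean was taken, and joined names were looked up by part. Ratios in 9 comparisons were log2(FPKM + 1), over genes with at least 1 FPKM in either group, and calls needed an absolute log2 ratio of 1 (2-fold); single folds are plain ratios of FPKM. Lists were described by counts and medians beside all genes. The members, lists and markers were chosen with earlier results of these data known. Partner genes were named if they reached 10 FPKM in any group and an absolute log2 ratio of 2 in any comparison, or if they stood on a short list of known regulators and enzymes (THRSP, OLAH, ME1, ELOVL5, ELOVL6, FADS1, SCAP, INSIG1, INSIG2, PPARG, SREBF2 and MLXIPL, with 1 more that is not reported here). Likeness was ranked over genes with a single symbol. Alternatives were a pseudocount of 0.1 FPKM, rescaling by the upper quartile or to the FPKM sum without the milk protein genes, no filter (above 0.01 FPKM), a 4-fold limit, and summed entries of a repeated name. GAPDH was listed at 0 in 4 of 6 groups, so a 0 may be a failed estimate. The code was tested on simulated data and run with Python 3.11.15, pandas 2.3.3, numpy 2.4.6 and, for plots, matplotlib 3.10.9.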

Additional observations from a re-analysis of the deposited data

How the results depend on the processing

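With 1 pooled value per group there is no error, and a single cow may carry a value. No paired analysis was possible because the columns hold pooled values without replicate numbers, and leaving out each replicate was not run for the same reason. Of 943 recomputed values, 845 stayed within a factor of 1.5 for counts and shares or within 0.58 and the same sign for log2 values, and 98 did not, 38 of them for single genes or single lists. The cause was not tested. In the counts below, lower and higher mean past the limit, members are the fatty acid synthesis genes and partners the wider list. With a pseudocount of 0.1 FPKM, 2 members were higher for D90 over D15 in Jersey cattle, and 3 partners were lower for D250 over D90. With the upper quartile, 3 partners were lower for D250 over D90 in Kashmiri cattle, and 1 member was higher for D250 over D15. In Jersey cattle 2 members were higher for D90 over D15, and 2 members and 2 partners were lower for D250 over D90. Between breeds at D250, 14 partners were lower, where the median of all genes was -0.51 under that scaling.

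With rescaling to the sum, the median of the members was 2.47 for D250 over D90 in Kashmiri cattle, where 0 partners were lower and 23 higher. For D250 over D15 in Kashmiri cattle it was 0.59, with 0 members lower and 2 higher, and the partners had 1 lower, 29 higher and a median of 0.99. In Jersey cattle, 2 members and 12 partners were higher for D90 over D15, and for D250 over D90, 2 members were lower while 10 partners were lower and 5 higher. For Jersey over Kashmiri cattle, 6 partners were lower at D15, 3 lower and 16 higher at D90, and 25 lower and 4 higher at D250, where the median of the members was -2.45. The median of all genes under this scaling was 0.22, 0.26 and -0.75 on these days. It was 0.59 and 0.76 for D250 over D90 and over D15 in Kashmiri cattle. In Jersey cattle it was -0.25 for D250 over D90. Shares of all genes past the limit were not computed under the rescalings, so these counts are no result about the partners. The breed difference in the members' change from D90 to D250 was -0.91, and from D15 to D250 it was -1.22. With no filter, the median of the members for D250 over D90 in Kashmiri cattle was 1.00, and minus the epithelial markers it was -0.50.

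With a 4-fold limit, Kashmiri cattle had 2 members lower and 0 higher for D90 over D15 and 0 lower for D250 over D15. Jersey cattle had 0 higher for D90 over D15, 0 lower for D250 over D90 and 1 lower for D250 over D15. Between breeds, 2 members were lower at D15, 3 lower and 0 higher at D90, and 0 lower at D250. Partners lower and higher were 6 and 2, 0 and 0, and 0 and 3 in Kashmiri cattle for D90 over D15, D250 over D90 and D250 over D15. In Jersey cattle they were 1 and 1, 0 and 0, and 1 and 3. Between breeds they were 0 and 3, 1 and 1, and 1 and 3 at D15, D90 and D250. Adding up the entries of a repeated name moved no count or median of the members.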
